A study of Betula luminifera with 4 samples.

Results

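Root microRNAs of Betula luminifera, a birch tree, were compared between phosphate-deficient plants (LP) and plants supplied with phosphate (CK). The comparison holds every mature sequence with a name in the series' table, rows with the same sequence counted once, in the root LP library and the root CK library. Of 215 distinct sequences in the table, 190 had reads in a root library, 140 of them in both, 40 in CK alone and 10 in LP alone, and 143 reached a normalized value of 10 in a root library. All plants belonged to clone G49#, were raised in tissue culture, planted in sterilized sand, given normal phosphate and then deionized water before the treatment. CK plants received modified liquid MS medium with 1.25 mM KH2PO4, and LP plants the same medium with no KH2PO4, its potassium replaced through K2SO4. The 54 plants of the experiment stood in 3 blocks. Each treatment gave 1 root library, and the labels do not say how many plants it pooled. The shoot libraries, of pooled stem and leaf RNA, are used here only to show where roots differ.

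Plant microRNAs are cut by a Dicer-like enzyme from a hairpin precursor. One strand of the duplex enters an Argonaute protein and guides the cutting or the silencing of messengers with a nearly complementary site, while the other strand is mostly lost. In phosphate-starved plants studied elsewhere, miR399 and miR2111 rise and relieve brakes on phosphate uptake, and families tied to copper, sulfate and nitrogen supply also respond. A plant microRNA pairs with its target along its whole length, and its seed, bases 2 to 8 from the 5′ end, is among the positions that matter most.

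Sequences that carry the main differences are given 5′ to 3′ from the deposited table, with the seed in capitals and T standing for U. The first set holds members of families at least 2-fold apart. Beside them stand miR166a, blu-miR7-3p and miR159a, with the largest absolute loss and the 2 largest gains on the authors' scale.
miR530b: tGCATTTGcacctgcacctcc
miR530a: tCTGCATTtgcacctgcacct
miR482b: tCTTCCCTactccgcccatgcc
miR482c: tCTTTCCTagccctcccattcc
miR166a: tCGGACCAggcttcattcccc
miR164a: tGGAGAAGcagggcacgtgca
miR858: tTCGTTGTctgttcgaccttg
miR397a: tCATTGAGtgcagcgttgatg
miR397c: tCATTGAGtgcagcgttgatt
miR2111a: tAATCTGCatcctgaggttta
miR1511b: aCCCAGGCtctgataccatga
miR2199: tGATACACtagcacgggtcac
blu-miR7-3p: tCGGTGCAtgatttgtgaagg
miR159a: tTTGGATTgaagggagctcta
miR530a and miR530b overlap with a start shifted by 2 bases. miR397a and miR397c differ at 1 base, position 21 from the 5′ end, and 57 sequences have fractional raw values in roots, so near-identical members are less certain than their sum.

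The second set shows 4 of 9 pairs in which a shorter listed sequence lies whole inside a longer one. They were chosen because the shorter form's log2 ratio, LP against CK, lay at least 1 above the longer form's in roots. In 3 of the 9 pairs it lay below.
miR395a: tGAAGTGTttgggggaact
miR395b: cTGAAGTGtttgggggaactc
miR399c: tGCCAAAGgagaattgccc
miR399a: tGCCAAAGgagaattgccctg
miR7122b: tTATTCAGagaaatcacggt
miR7122a: tTATTCAGagaaatcacggttg
miR169b: tGAGCCAAgaatgacttgcc
miR169c: tGAGCCAAgaatgacttgccgac
The members of each pair of miR399, miR7122 and miR169 share start and seed. miR395a lacks the first base of miR395b, so its seed is shifted by 1 base.

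With 1 library a side there is no replicate and no test. Folds are ratios of the authors' normalized values, followed by an exact 95% interval from the raw reads. The interval covers counting error only and compares libraries, not conditions. The table's reads summed to 308667 in root CK and 101816 in root LP, 3.03 times fewer, so 1 read in root LP is worth a normalized value of 2.73 against 1.02 in root CK. Root LP has the smallest total of the 4 libraries and so the widest counting intervals. The table lists microRNAs alone, so the root label could not be checked against tissue markers. In such bulk RNA, fewer cells of a type and less RNA per cell cannot be told apart.

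Of the 143 sequences, 34 were at least 2-fold higher under LP, 23.8% of those measured, and 26 at least 2-fold lower, 18.2%. These calls use log2 ratios taken after adding 1 to each value. The counting interval excluded equality for 23 of the 34 and 24 of the 26. The ratios were centred near 0, with a median log2 ratio of 0.07, 76 sequences above 0 and 67 below. Sequences were summed into families by the number in their name, opposite strands included, though the strands could differ in ratio. Of these families 48 were measured, of which 11 were at least 2-fold higher, 22.9%, and 4 lower, 8.33%. The higher families were miR395, miR397, miR398, miR828, miR858, miR1510, miR1511, miR2111, miR2199, miR3630 and miR4415, and the lower ones miR164, miR319, miR482 and miR530. The split depends on the filter, since a normalized value of 10 takes 4 reads in LP roots but 10 in CK roots. With any read in a root library counted, 40 sequences were higher and 60 lower of 190, and with at least 20 raw reads over both libraries 15 were higher and 24 lower of 113. Of the higher families, miR828, miR1510, miR2111, miR2199, miR3630 and miR4415 passed through LP alone, while all 4 lower families passed in both libraries. With any read counted, 12 families were higher and 7 lower of 53. With at least 20 raw reads, 6 were higher and 4 lower of 39.

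**Figure D1:**
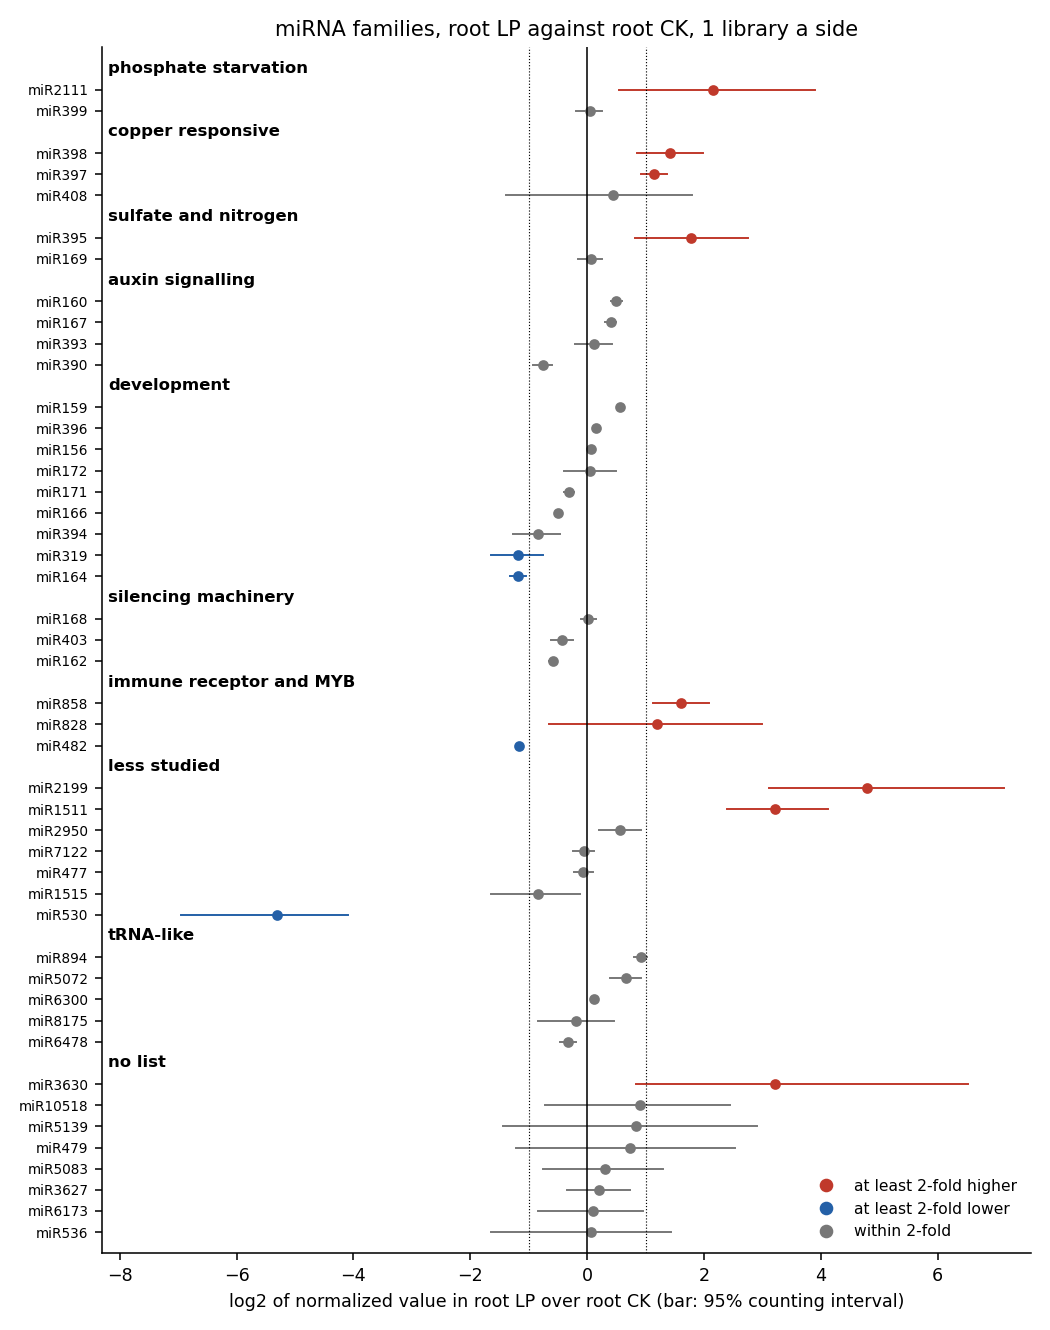
Each point is the log2 ratio of a family's normalized value in root LP over root CK, and each bar its 95% counting interval, grouped by list. Most families lie between the dotted 2-fold lines, miR530 lies far to the left with 13.6 against 543, and miR1510 and miR4415, with no reads in root CK, are not drawn.

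Among the phosphate-starvation families, miR399 and miR2111 were measured, and 1 of the 2 was higher, with a median log2 ratio of 1.02 beside 0.14 over all families. Over all 48 families 22.9% were higher and 8.33% lower, shares that depend on the filter as given above. This list and those below hold too few families for their counts to be told apart from these shares. miR399, which guides the cutting of the messenger of PHO2, an enzyme that limits phosphate uptake in Arabidopsis, had a normalized value of 610.3 in root CK and 629 in root LP. The libraries hardly differed, at 1.03-fold (0.880 to 1.20). Inside the family the 21-nt miR399b, which made most of the reads, stood at 552 in CK and 460.4 in LP, while the 19-nt miR399c stood at 27.6 and 127. The latter was 4.60-fold higher (2.77 to 7.61). miR2111, which in legumes and Arabidopsis targets an F-box gene in roots, had 6 reads in CK and 10 in LP, 4.45-fold higher (1.47 to 14.9). Its members went opposite ways, miR2111a with 2 and 10 reads and miR2111b with 4 and 0.

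In the copper-responsive list 2 of 3 families were higher, beside 22.9% of all families, with a median log2 ratio of 1.14. miR397, which targets laccases, stood at 394 in CK and 871 in LP, 2.21-fold higher (1.90 to 2.57). All 4 of its members lay higher in LP, from miR397a at 348 and 644, which alone was under 2-fold, to miR397d at 11.2 and 76.4. miR398, which targets copper/zinc superoxide dismutases, stood at 54.9 and 147, 2.68-fold higher (1.80 to 3.97), and its 3 members had close log2 ratios of 1.17 to 1.41. miR408, which targets copper proteins, was at 12.9 and 17.5, with an interval of 0.384 to 3.48 that holds equality.

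Of the sulfate and nitrogen families, 1 of 2 was higher, beside 22.9% of all families. miR395, which targets ATP sulfurylases and a sulfate transporter, stood at 18.4 in CK and 62.8 in LP, 3.41-fold higher (1.76 to 6.71). Its 21-nt miR395b had 13 and 11 reads, and its 19-nt miR395a had 0 and 12. In LP medium K2SO4 replaced the potassium of KH2PO4, so the treatments differ in sulfate as well as phosphate. These cannot be told apart here. miR169, which targets NF-YA transcription factors, stood at 698 and 727, and its 4 members ranged from a log2 ratio of 1.02 for miR169b to -1.80 for miR169c. The near-level sum therefore joins members that parted by 2.82 on the log2 scale.

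All 4 auxin-signalling families stayed under 2-fold, with a median log2 ratio of 0.26. The regulators of auxin response factors, miR160 and miR167, stood at 2827 and 2892 in CK and at 3991 and 3821 in LP. miR393, which targets the auxin receptors TIR1 and AFB, stood at 293 and 317. miR390, which starts the making of trans-acting siRNAs against auxin response factors, was lower at 1914 in CK and 1130.1 in LP, 1.69-fold (1.52 to 1.89). The main sequence miR160a was 1.87-fold higher (1.72 to 2.03), whereas miR160c, which differs from it at 1 base, position 15, had 29 reads in CK and 0 in LP. The opposite strand miR160a-3p, counted in the family, stood at 881 in CK and 595 in LP.

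Of the 9 development families none was higher and 2 were lower, beside 22.9% and 8.33% of all families. Their median log2 ratio was -0.31. miR164, which targets NAC genes that act in organ boundaries and lateral roots, stood at 2892 in CK and 1279 in LP, 2.26-fold lower (2.05 to 2.50). miR319, which targets TCP genes, stood at 311 in CK and 138 in LP, 2.26-fold lower (1.68 to 3.13). Scaling to the table total put both just under 2-fold, at log2 ratios of -0.99 each. miR166, which targets HD-ZIP III genes that pattern vessels and root tissues, was the most abundant family, at 27.6% of root CK reads and 22.1% of root LP reads. Its value was 87016 in CK and 61438 in LP, 1.42-fold lower (1.40 to 1.44). miR171, which targets GRAS genes of the meristem, stood at 5109.6 and 4113, and miR394, whose target LCR is an F-box gene, at 326 and 182. On the other side of equality lay miR159, which targets GAMYB genes, at 8443 in CK and 12507 in LP, 1.48-fold higher (1.43 to 1.54). This sum joins the main sequence miR159a, at 5577 in CK and 10678 in LP, with its opposite strand miR159a-5p, at 2835 and 1829. miR396, which targets growth-regulating factors, stood at 29274 and 32655. miR156, which targets SPL genes, stood at 48541 and 50906, and miR172, which targets AP2-type genes, at 157 and 163.

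The silencing families did not reach 2-fold, with a median log2 ratio of -0.43. miR162, which targets the Dicer-like enzyme DCL1, stood at 11006 in CK and 7324 in LP, 1.50-fold lower (1.44 to 1.57). miR403, which targets the Argonaute AGO2, stood at 1124 and 835, and miR168, which targets AGO1, at 1843 and 1867.

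The immune-receptor and MYB families went both ways, 2 higher and 1 lower of 3, beside 22.9% and 8.33% of all families. Their median log2 ratio was 1.09. miR482, which targets NBS-LRR immune receptor genes and starts secondary siRNAs, stood at 44654 in CK and 19922 in LP, 2.24-fold lower (2.19 to 2.30), or at a log2 ratio of -0.98 when scaled to the table total. Its 4 abundant members were lower, miR482b at 34312 and 14866, miR482a at 5355 and 2921, miR482c at 3623 and 1343 and miR482h at 1191 and 678. miR858, which targets MYB genes of phenylpropanoid metabolism, stood at 72.5 in CK and 221 in LP, 3.05-fold higher (2.19 to 4.25). miR828, which also targets MYB genes, had 7 reads in CK and 6 in LP, and its interval of 0.636 to 7.96 holds equality. A pseudocount of 10 took its log2 ratio from 1.09 to 0.62.

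Among the less studied families 2 of 7 were higher and 1 lower, beside 22.9% and 8.33% of all families. Their median log2 ratio was -0.06. miR530, which targets a gene of panicle architecture in rice, stood at 543 in CK and 13.6 in LP, 39.8-fold lower (17.0 to 123). Each of its members lay lower: miR530b had 490.5 reads in CK and 3 in LP, miR530a 28 and 2, and miR530c 13 and 0. miR1511 stood at 16.3 and 153, 9.35-fold higher (5.29 to 17.5), and miR2199 at 3.07 and 84.6, 27.6-fold higher (8.61 to 141). miR2950 stood at 195 and 288. miR7122, which starts secondary siRNAs from pentatricopeptide repeat genes in other trees, stood at 1048 and 1007, miR477 at 1245 and 1193, and miR1515, which targets a Dicer-like gene in legumes, at 93.0 and 51.9. In miR7122 the main strands miR7122a and miR7122b together stood at 765 in CK and 898 in LP, and their opposite strands at 283 and 101.

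The 5 families whose sequences resemble parts of tRNAs did not reach 2-fold. miR894 stood at 1728 in CK and 3265 in LP, 1.89-fold higher (1.75 to 2.04), and miR5072 at 330.03 and 521. miR6300 stood at 11617 and 12570, miR6478 at 1863 and 1490.4, and miR8175 at 85.3 and 75.1. Their median log2 ratio was 0.11, close to the 0.14 of all families.

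On the authors' scale a few abundant sequences carried most of the absolute difference between the libraries. Summed normalized values were 315389 in root CK and 277919 in root LP. The sequences lower in LP differed by -67912 in all, and miR166a and miR482b made 58.7% of this. miR166a stood at 66100.3 in CK and 45658 in LP, a difference of -20442 at a fold of only 1.45 lower (1.42 to 1.47). The difference of miR482b was -19447. The sequences higher in LP differed by 30442 in all, and 4 of them made 70.6% of this. These were the predicted birch sequence blu-miR7-3p, at 39205 in CK and 46675 in LP, miR159a, at 5577 and 10678, miR156g, at 38754 and 43726, and miR396a, at 28357 and 32308. Families with a large fold such as miR530 or miR858 added little to these sums. The sums and shares hold on the authors' scale and were not taken under another scaling. Scaling to the table total makes the totals of the libraries equal by definition, so size and order of the differences could change.

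**Figure D2:**
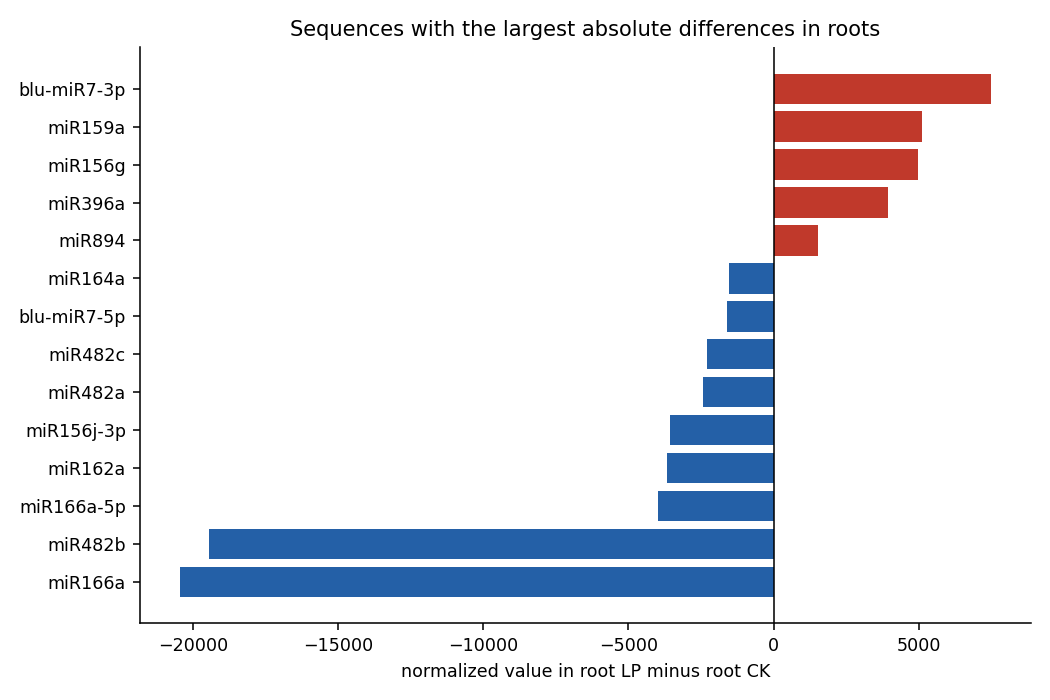
Bars give the authors' normalized value in root LP minus that in root CK for the 14 sequences with the largest absolute difference. miR166a and miR482b reach about the same depth at -20442 and -19447, while the largest gain, blu-miR7-3p, is 7470.1.

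Both strands of a precursor were listed for 34 loci, and for 18 of them each strand had at least 10 raw reads over both root libraries. The major arm was defined from the shoot libraries, as the strand with the higher summed value there, so that root values played no part in the choice. In roots the minor arm had the lower log2 ratio in 14 of 18 loci and the higher in 4. The median difference between the log2 ratios of major and minor arm was 0.39. In shoots the minor arm had the lower ratio in 8 of the same 18 loci, with a median difference of -0.16. The median share of the minor arm among a locus's reads was 22.9% in root CK and 12.2% in root LP.

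The difference was at least 1 on the log2 scale in 7 loci and at most -1 in none of the 18. miR396a had 27753 reads in CK and 11836 in LP, and its opposite strand miR396a-3p had 827 and 101. The minor strand thus made 2.89% of the locus's reads in CK (exact binomial interval 2.70% to 3.10%) and 0.846% in LP (0.690% to 1.03%). At miR159a the minor strand made 33.7% (32.7% to 34.7%) in CK and 14.6% (13.6% to 15.7%) in LP, where miR159a was 1.91-fold higher (1.84 to 2.00) and miR159a-5p 1.55-fold lower (1.42 to 1.69). At miR160a the shares were 38.0% (36.04% to 40.1%) and 18.2% (16.02% to 20.5%). At miR156a/b/c they were 39.8% (38.1% to 41.6%) and 24.8% (22.5% to 27.1%), and at miR7122a and miR7122b, which share a precursor, 27.0% (24.3% to 29.8%) and 10.1% (7.22% to 13.7%). Minor shares in shoots, CK first, were also lower in LP at miR159a (4.69% and 3.07%) and at miR7122a and miR7122b (3.07% and 1.84%). They were higher in LP at miR160a (8.91% and 22.5%), miR156a/b/c (39.7% and 56.6%) and miR396a (1.60% and 1.75%).

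Among the predicted loci, blu-miR14 and blu-miR7 showed the same order with share intervals apart. At blu-miR6 the shares were 16.95% in root CK and 13.24% in root LP, with overlapping intervals. blu-miR8 was near level, with a difference of 0.034 between the log2 ratios of its arms, and blu-miR13 went the other way. At blu-miR14 the minor strand made 20.2% of reads in CK (17.8% to 22.9%) and 7.32% in LP (5.06% to 10.2%), and at blu-miR7 9.598% (9.32% to 9.88%) and 5.18% (4.86% to 5.51%). In shoots the shares in CK and LP were 32.9% and 27.0% at blu-miR14, and 2.24% and 2.53% at blu-miR7. In all, the share intervals of the libraries did not overlap at 9 loci, and at each of these 9 the minor share was the lower one in LP. The exceptions to the order were miR169a, with 41.0% and 41.2%, miR164a, with 4.03% and 4.696%, miR162a, with 1.14% and 1.45%, and blu-miR13-5p, with 20.5% and 25.0%, all with overlapping intervals. The remaining large difference, 2.11 for miR319b-5p over miR159c, rests on 2 reads and 0 reads in root LP. The minor strands had fewer reads than the major ones at 17 of the 18 loci, and the table seldom lists exactly 1 read. With at least 50 reads of each strand, the minor arm had the lower ratio in 12 of 15 loci.

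The precursor of miR396a (transcript TRINITY_DN26367_c1_g5 of the authors' assembly, positions 46 to 177, plus strand, no genome build) is shown with both listed arms in capitals as deposited, miR396a first and miR396a-3p second.
miR396a precursor: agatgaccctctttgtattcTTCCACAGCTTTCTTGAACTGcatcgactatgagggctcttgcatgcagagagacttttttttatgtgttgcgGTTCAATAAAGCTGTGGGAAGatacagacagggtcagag
The precursor of miR160a (transcript TRINITY_DN27612_c0_g1, positions 93 to 183, plus strand) is shown in the same way, since its arms parted one way in roots and the other way in shoots, with differences of 1.47 and -1.57.
miR160a precursor: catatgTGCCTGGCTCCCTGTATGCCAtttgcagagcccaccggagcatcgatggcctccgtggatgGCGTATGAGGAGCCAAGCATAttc

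**Figure D3:**
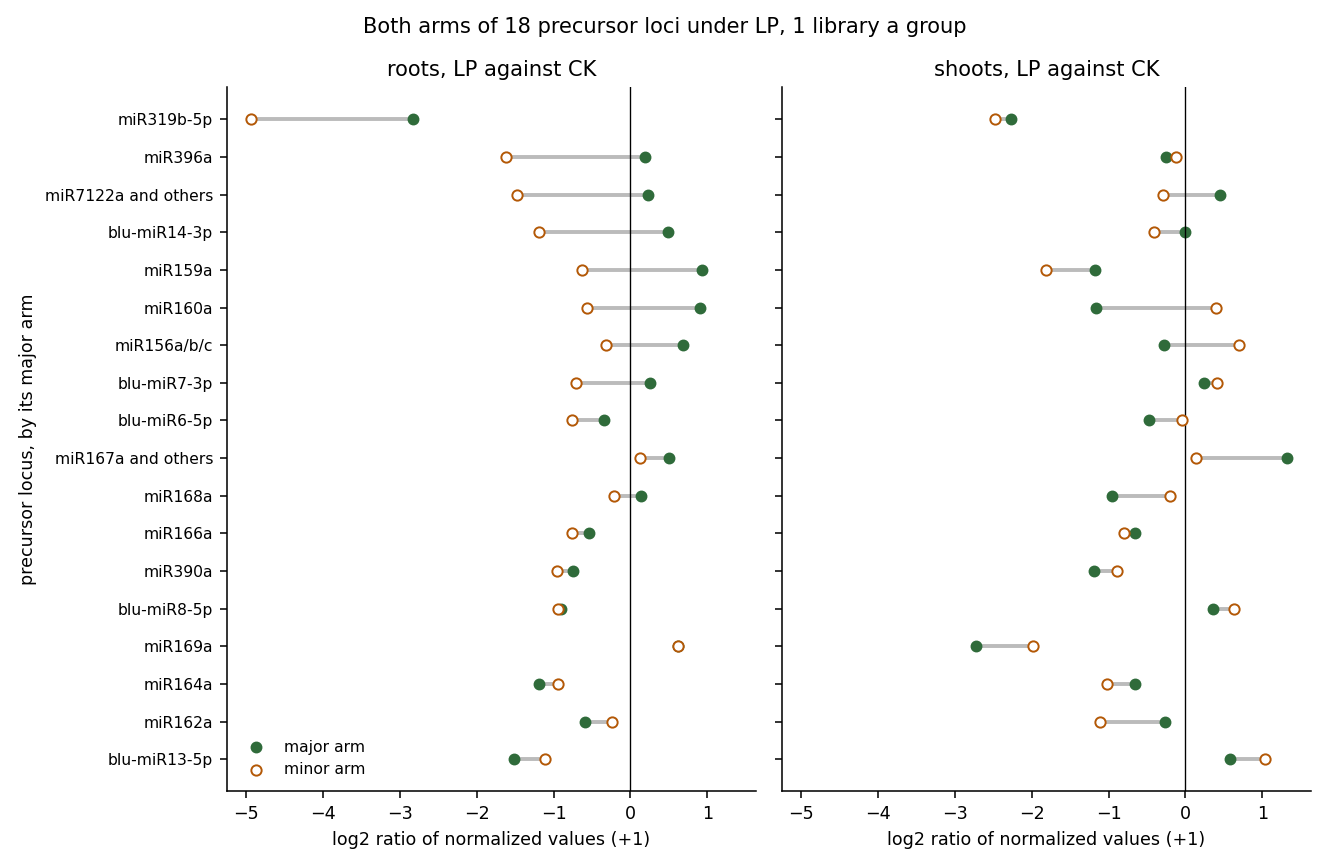
Each row is a precursor locus with the log2 ratio, LP against CK, of its major arm (filled) and minor arm (open), in roots on the left and shoots on the right. In roots the open points lie left of the filled ones in 14 of 18 rows, in shoots in 8 of 18.

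Short sequences had the higher root ratios among those past the filter, but the count of lower ones depends on that filter. Of 30 sequences of 18 to 20 nt past it, 12 were at least 2-fold higher and none lower, against 17 higher and 18 lower among 83 of 21 nt. A further 8 short sequences had reads in CK and none in LP and fell under the filter. With any read counted, 12 of 38 short sequences were higher and 8 lower, 31.6% and 21.1%, beside 21.1% and 31.6% of 190 sequences of all lengths. With at least 20 raw reads, 5 of 20 were higher and none lower, 25.0% and 0%, beside 13.3% and 21.2% of all lengths. The median log2 ratio of the short sequences was 0.84 past the first filter, 0.67 with any read and 0.64 with 20 reads. In shoots the order was opposite, with 1 short sequence higher and 12 lower of 20 past the filter, beside 17.1% higher and 27.9% lower over all 140 shoot sequences measured. With any read counted, 1 short sequence was higher and 22 lower of 33 in shoots. RNA integrity per library is not given beyond an RNA integrity number above 7.0, and its part in the length pattern was not tested. Most of the difference at 22 nt lay in miR482. Its 22-nt members were 2.26-fold lower (2.20 to 2.32), and the other 22-nt sequences together, at 3603 in CK and 2839 in LP, 1.27-fold lower (1.18 to 1.36).

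**Figure D4:**
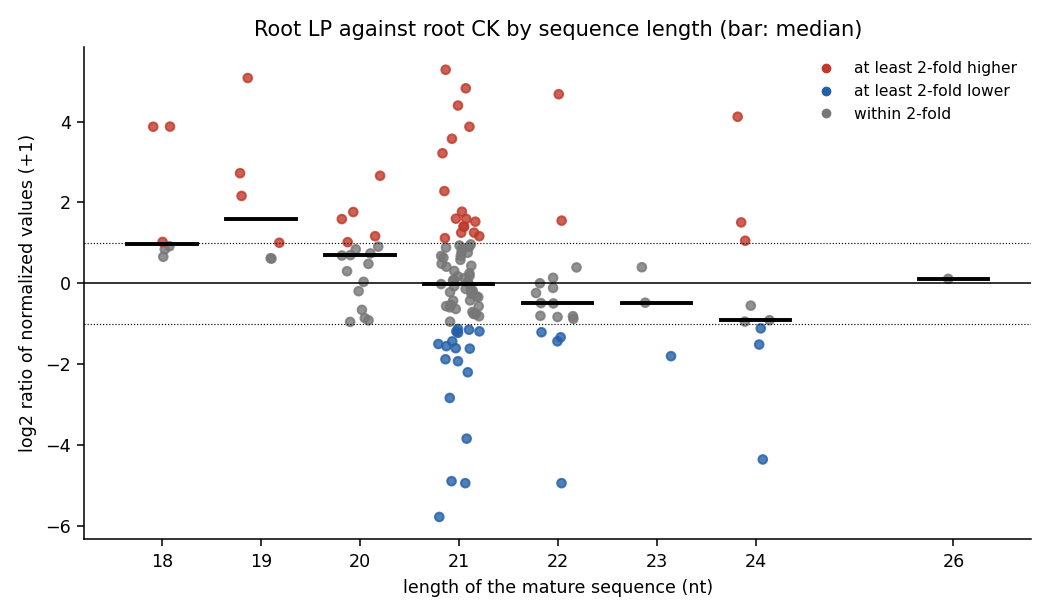
Each point is a sequence past the filter, placed by its length in nt and its log2 ratio in roots, with black bars at the median of each length. Of the drawn sequences of 18 to 20 nt none lies below the lower dotted 2-fold line and 18 of 21 nt do, but 8 short sequences read in CK alone fell under the filter and are not drawn.

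Some short and long forms of a family parted in roots. In 9 pairs a listed sequence lay whole inside a longer one with at least 10 root reads each, and the shorter form had the higher log2 ratio in 6. In shoots the shorter form had the lower ratio in all 9. miR7122b, which ends short of miR7122a at the 3′ end, had 74 reads in CK and 95 in LP, while miR7122a had 675 and 234. Their log2 ratios were 1.76 and -0.11. miR169b had 14 and 11 reads and miR169c 276.5 and 29.5. miR399c had 27 and 46.5 reads beside 29.7 and 15.2 for miR399a. The opposite order held for miR156g in miR156i, miR394a in miR394b and miR8175b in miR8175a. The sources used here do not say how reads were assigned between nested forms.

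**Figure D5:**
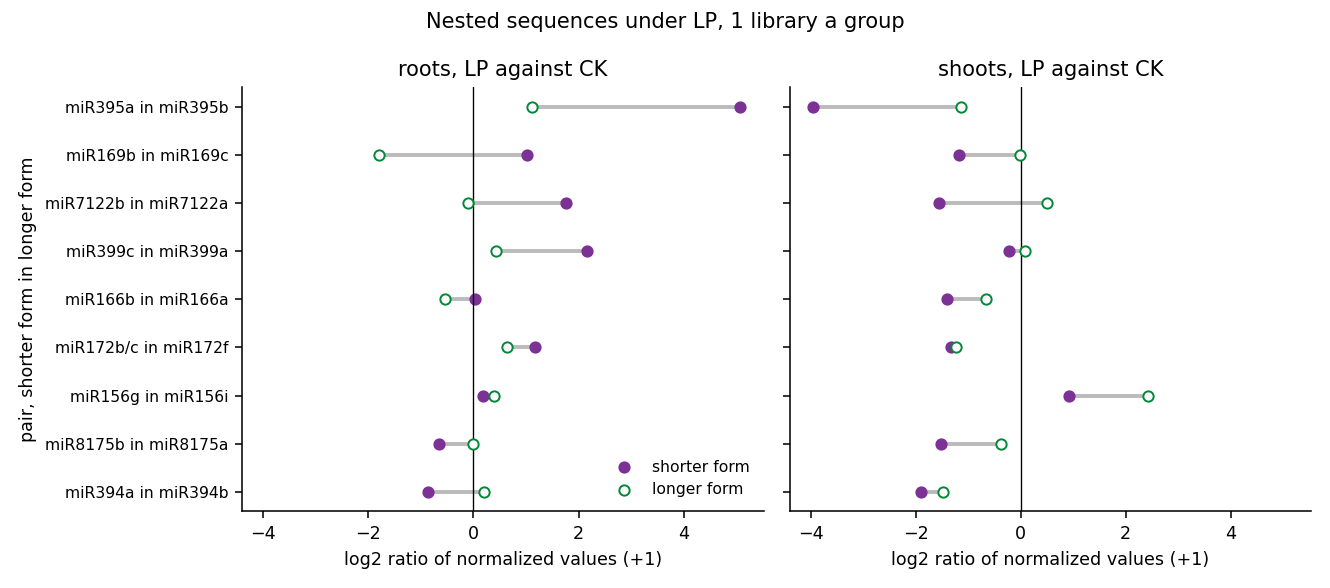
Each row is a pair of nested sequences with the log2 ratio, LP against CK, of the shorter form (filled) and the longer form (open), in roots and in shoots. The shorter form lies to the right in 6 of 9 rows in roots and to the left in all 9 in shoots.

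Members of a family often had log2 ratios far apart, but whether farther than unrelated sequences was not tested. Of 27 families with at least 2 members past the filter, 21 had members at least 1 apart in log2 ratio, and the median spread was 2.42. The spread is the highest minus the lowest member, opposite strands included, and can only widen with more members. Over all sequences past the filter the quartiles of the log2 ratio were -0.81 and 0.93. Some extremes rest on 0 reads in a library and depend on the pseudocount, such as miR159c, miR160c and miR395a. In miR171 the 18-nt miR171b had 4 reads in CK and 27 in LP, while the 21-nt miR171e had 66.8 and 8. In miR156 the strand miR156j-3p stood at 6529 in CK and 2953 in LP, and miR156f at 13.3 and 42.3. In miR403 the ratios ran from 1.59 for miR403b to -1.87 for the opposite strand miR403c-5p. Families whose members kept close were miR398, miR164 and miR390, with spreads of 0.24, 0.24 and 0.21, and miR168 and miR162, with 0.35 each.

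At 12 sequences a root library had no reads and the other a normalized value of at least 10. No reads in LP were listed for miR159c and miR160c with 29 reads each in CK, blu-miR40-5p with 28, blu-miR34-3p with 19 and miR530c with 13. No reads in CK were listed for miR395a with 12 reads in LP, miR167b-3p with 10, miR1510 with 9, blu-miR21-3p with 6, miR4415 and miR482b-5p with 5 each and blu-miR10-5p with 4. A listed 0 may hide a read, so no fold is given. Among the 8 sequences farthest up with a normalized value of at least 50, miR1511b and miR2199 had 2 and 3 reads in CK and 43 and 31 in LP, and miR171b, miR397d, miR397c, miR399c, miR7122b and miR858 had log2 ratios of 3.88 to 1.59. On the falling side, with at least 50 in a library, miR530b, miR169c, miR396a-3p, miR171e, miR477-5p, blu-miR13-5p, miR166f-5p and miR7122a-3p had log2 ratios of -5.77 to -1.43. miR396a-3p and miR7122a-3p among these 8 are minor strands of the loci above. blu-miR13-5p is the major strand of its locus, at -1.51 beside -1.11 for the minor strand.

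Against the shoot libraries, 8 of the 34 sequences higher in roots were also at least 2-fold higher in shoots under LP, 7 were at least 2-fold lower there, 3 lay within 2-fold and 16 were under the filter. These are 23.5% higher and 20.6% lower, beside 13.3% and 21.7% of all 143 sequences. Within 2-fold in shoots were 8.82%, beside 46.9% of all 143. Under the shoot filter were 47.1%, beside 18.2% of all 143, and these could not be compared in shoots. Of the 26 lower in roots, 2 were higher in shoots, 5 lower, 16 within 2-fold and 3 under the filter, which makes 7.69% higher and 19.2% lower. The 6 sequences with at most 3 reads in either CK library and at least 5 in both LP libraries were miR1510, miR1511b, miR167b-3p, miR2199, miR4415 and blu-miR21-3p. Their reads in root LP and shoot LP were 9 and 9, 43 and 47, 10 and 9, 31 and 28, 5 and 8, and 6 and 6. The shoot LP total is 7.11 times the root LP total, and why the read numbers are alike was not tested. By the same limits 3 sequences had at least 5 reads in both CK libraries and at most 3 in either LP library, miR395c-5p, miR530a and blu-miR4-3p. Both counts, 6 and 3, are out of 215 distinct sequences. The limits are raw reads and root CK holds 3.03 times the reads of root LP, so the counts are not on equal terms.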

How the data were processed

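Small RNA of roots and shoots was sequenced as 36-nt single reads from about 1 µg of total RNA per library, per the labels' protocols. The table's raw columns hold estimated counts of reads per mature sequence as deposited by the authors, and were used unrounded except in counting intervals. Fractional values among them were read here as reads of several places split between sequences. The normalized columns hold a signal from the authors that equals the raw column times a fixed number per library (1.02 in root CK, 2.73 in root LP), found here as the ratio of the columns. The precursor's percent of G and C and its folding ratio (MFEI), both deposited by the authors, support no result. For the aligner, counting program, filters and scaling numbers nothing is given in the sources used here, and 2 blank lines were left out. The table totals behind the intervals are not whole-library depths.

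Of 221 rows, those with identical sequence were counted once, and 141 carry a precursor position. Log2 ratios were taken after adding 1. A sequence or family counted as higher or lower at a log2 ratio of 1 or more in size, if its normalized value reached 10 in a root library. With 1 library a group no test was run. Folds carry exact conditional intervals and shares exact binomial intervals (Clopper-Pearson, 95%, scipy 1.17.1, pandas 2.3.3, numpy 2.4.6), which cover counting error only since reads without molecular identifiers are not independent molecules. The fold intervals were run on simulated Poisson counts, the model behind them, which checks the code and not their fit to real libraries. The share intervals were not simulated. Arms were paired where precursors overlap on a transcript of the authors' assembly. Named are every listed family past the filter, the 8 sequences farthest up and the 8 farthest down with a value of at least 50, those with 0 reads in a root library, the 10 most abundant families, the loci with both arms and the families with members at least 1 apart. The comparison, the 9 family lists and the rules were chosen with earlier results of these data known. Length classes, nested pairs and sequences read in both LP libraries were described after their values were seen. Alternatives were other scalings (table total, TMM of edgeR 4.0.16, median of ratios), a pseudocount of 10, other filters, rows as deposited, the main sequence of a family alone and known names alone. Figures were drawn with matplotlib 3.10.9.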

Additional observations from a re-analysis of the deposited data

Results flagged for a closer look

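A few families and named sequences differed at least 2-fold in opposite directions in roots and shoots, each with counting intervals that exclude equality. The difference between the tissues was not tested, since each group is 1 library. miR858 had 71 and 81 reads in root CK and root LP and 3440 and 463 in shoot CK and shoot LP, so its log2 ratio was 3.89 higher in roots, as family and as its only sequence alike. The miR395 family, with normalized values of 18.4 and 62.8 in roots and 120.4 and 45.6 in shoots, had a root ratio 3.10 above the shoot ratio. Its 19-nt miR395a had 0 and 12 reads in roots and 28 and 0 in shoots, a gap of 9.03 that depends on the pseudocount. miR7122b, with 74 and 95 reads in roots and 172 and 38 in shoots, lay 3.32 higher in roots. blu-miR34-3p, with 19 and 0 reads in roots and 36 and 52 in shoots, went the other way, with a root ratio minus shoot ratio of -5.44.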

How the results depend on the processing

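With 1 library a side the processing cannot be weighed against replicate spread, and depth limits the rising calls most, since many rest on fewer than 20 reads. Scaling to the table total shifted the median log2 ratio of sequences by 0.18 to 0.25, gave 43 sequences higher and 23 lower, 13 families higher and 1 lower, and took miR164 to -0.99, miR319 to -0.99 and miR482 to -0.98. A pseudocount of 10 left 20 sequences higher. Without a filter beyond a read in 1 root library, 60 sequences and 7 families were lower and the median was -0.23. With at least 20 raw reads, 15 sequences and 6 families were higher and the median was -0.19. Of sequences of 18 to 20 nt, 8 were lower without the filter and 1 under TMM, against 0, and 5 were higher with at least 20 reads, against 12. Pairing arms by name gave a median difference of 0.55 over 20 loci, 15 with the minor arm lower and 5 with it higher. By name miR167b lay at -4.82, the only locus at -1 or less, on 0 reads of miR167b-3p in CK and 10 in LP. There the minor share was the higher one in LP, 0% and 3.07%, with share intervals apart. miR319 with its main sequence alone was at -0.91 and miR397 at 0.89, and miR828 with a pseudocount of 10 at 0.62. Of 15 families at least 2-fold apart, 12 stayed so under every scaling, and 7 families near equality changed sign under one: miR156, miR168, miR169, miR172, miR399, miR477 and miR7122. No called ratio changed sign. Of 585 values of named families and sequences under these settings, 531 lay inside the counting interval of the reported value. Many of these were fixed in advance, since another filter leaves every ratio as it was. Rows as deposited and known names alone do the same for a sequence. The interval of a sequence with 0 reads in a library is open at an end, and items under a filter were left out. No paired analysis was possible because each group has 1 library.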
